A study of Mus musculus with 18 samples.

Results

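The SLC25 family of mitochondrial carriers was followed at the RNA level in mouse CD8+ T cells. Members were taken as the protein-coding genes whose symbol starts with Slc25a, apart from Slc25a37 and Slc25a28, the mitochondrial iron importers. This gave 43 members among 27830 genes listed in any of the 3 deposited tables, of which 41 were listed with the naive cells, 42 with the effector cells and 41 with the memory cells. The libraries were poly-A RNA-seq of CD8+ T cells from mice 8 weeks old that were labelled Hspa9 cKO, a conditional knockout of the mitochondrial chaperone GRP75, or WT. The naive cells were isolated from spleen and lymph nodes, and part of them was differentiated in vitro into effector or memory cells. Each of the 6 groups (naive cKO and WT, effector cKO and WT, memory cKO and WT) held 3 libraries, 18 in all, and no other allele or agent was named for any group. The labels give neither the Cre driver nor the deleted part of Hspa9. Nothing in them says that replicates were different animals, so the p-values below measure only the spread between these samples, which may be technical. In bulk RNA of this kind, fewer cells of a type and less RNA per cell cannot be told apart.

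Carriers of this family sit mostly in the inner mitochondrial membrane and exchange nucleotides, phosphate, amino acids, carboxylates and cofactors between the cytosol and the matrix. The adenine nucleotide translocators and the phosphate carrier supply ATP synthase, the aspartate/glutamate carriers and the oxoglutarate carrier form the malate-aspartate shuttle, and the carnitine carrier brings in acyl groups for fatty acid oxidation. The carriers are made in the cytosol and inserted by the TIM22 complex, a route apart from the presequence route whose import motor uses GRP75. In T cells, activation is known to raise demand for mitochondrial one-carbon, amino acid and nucleotide metabolism.

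The genes on which the genotype comparisons turned were Slc25a24, called in all 3 subsets, and Slc25a3, Slc25a27 and Slc25a36, called in 2 subsets each. Slc25a24 encodes a calcium-regulated ATP-Mg/phosphate carrier, Slc25a3 the phosphate carrier, Slc25a36 a pyrimidine nucleotide carrier and Slc25a27 the uncoupling protein relative UCP4. Promoter windows of 3 of them are shown, from 250 bases before to 50 after the annotated start (RefSeq, GRCm38.p6, 5′ to 3′ on the gene's strand), because these genes were called in more than 1 subset. Capitals mark a match to a searched motif. The Slc25a24 window is chr3:109122899-109123198 on the plus strand, the Slc25a36 window chr9:97110992-97111291 on the minus strand and the Slc25a3 window chr10:91123918-91124217 on the minus strand.
Slc25a24: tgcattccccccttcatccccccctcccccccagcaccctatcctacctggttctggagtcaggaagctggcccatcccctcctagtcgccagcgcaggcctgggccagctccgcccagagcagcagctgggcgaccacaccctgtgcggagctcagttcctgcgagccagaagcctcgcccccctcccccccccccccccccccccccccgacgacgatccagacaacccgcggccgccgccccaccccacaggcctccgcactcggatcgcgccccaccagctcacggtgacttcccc
Slc25a36: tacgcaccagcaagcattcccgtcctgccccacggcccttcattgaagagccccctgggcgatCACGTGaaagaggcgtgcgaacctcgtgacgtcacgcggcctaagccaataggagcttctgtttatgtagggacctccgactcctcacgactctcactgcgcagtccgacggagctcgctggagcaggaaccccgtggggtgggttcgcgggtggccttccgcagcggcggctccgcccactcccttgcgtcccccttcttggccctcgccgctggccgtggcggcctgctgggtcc
Slc25a3: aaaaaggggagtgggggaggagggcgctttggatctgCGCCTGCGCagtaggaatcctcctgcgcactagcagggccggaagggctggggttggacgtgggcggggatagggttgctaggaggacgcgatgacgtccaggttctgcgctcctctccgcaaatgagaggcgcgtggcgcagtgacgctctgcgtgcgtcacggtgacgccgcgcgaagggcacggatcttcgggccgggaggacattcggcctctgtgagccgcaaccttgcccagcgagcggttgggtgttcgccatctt
Motifs of 4 factors were searched on both strands. The core of the ATF4 and CHOP composite element, TGATGNAA, lay in 3.91% of 32544 RefSeq promoter windows and in 0 of the 33 members that have one. The E-box CACGTG lay in 7.17% of all windows and in 7 members, among them Slc25a36, where it starts 187 bases before the start site. An AP-1 element, TGANTCA, lay in 7.79% of all windows and in 2 members, Slc25a11 and Slc25a13. The NRF1 core GCGCANGCG lay in 6.29% of all windows and in 2 members, Slc25a3 and Slc25a31, and begins 213 bases before the start site of Slc25a3, where the capitals give it on the other strand. The Slc25a24 window held none of the 4 motifs. These matches describe letters in a window and were not tested as sites.

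Library totals lay between 14771251 and 18049774 reads assigned to genes. Hspa9 RNA did not fall with the cKO label. Hspa9 had 6438 ± 284, 2340 ± 151 and 5637 ± 160 normalised reads in naive, effector and memory libraries labelled cKO, against 3992 ± 176, 2093 ± 79.7 and 4041 ± 119 in WT (SD, n = 3 each). Gene-level reads include any part of Hspa9 that the deletion leaves, and every direction given below rests on the labels. Reads of all 6 CD8 T cell markers (Cd3e, Cd3d, Cd3g, Cd8a, Cd8b1, Trac) were present in every group. In naive cells the Y-linked Ddx3y had 2907 ± 143 normalised reads in libraries labelled cKO and 0 in WT, and Xist had 4428 ± 279 against 16393 ± 1514, so the naive genotype groups also differ in sex-linked RNA. Ddx3y was not listed or did not pass the filter in effector and memory cells, so the naive libraries labelled cKO stood apart in this RNA. Xist was also called lower in effector libraries labelled cKO (log2 fold change -0.20, SE 0.04, limma adjusted p = 5.0e-04). In memory cells it was not called (-0.20, SE 0.17, adjusted p = 0.47). The 4 X-linked members were Slc25a5, Slc25a14, Slc25a43 and Slc25a53. The 3 of them that could be tested were not called in naive cells.

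Levels between carriers were compared as TPM (reads per kilobase of gene length, scaled to sum to 1000000 per library). Slc25a5, the adenine nucleotide translocator typical of growing cells, was the most abundant member in every group. In WT it had 605, 563 and 572 TPM in the 3 naive libraries, 789, 825 and 828 TPM in effector and 659, 733 and 675 TPM in memory libraries. Slc25a3 followed with 242 ± 8.13, 243 ± 2.85 and 342 ± 9.22 TPM in WT naive, effector and memory cells. Slc25a4, the translocator of heart and muscle, came next with 168 ± 3.36, 204 ± 5.20 and 178 ± 18.8 TPM (SD, n = 3 each). No library of one of these 3 genes overlapped the next in the order in any WT subset. Together the 3 carriers of ADP, ATP and phosphate made up 57.9%, 60.2% and 62.8% of the summed TPM of the family in naive, effector and memory libraries labelled cKO, against 57.5%, 60.2% and 63.6% in WT.

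Slc25a11, the oxoglutarate carrier, followed these 3 in each WT subset with 68.6 ± 0.234, 96.4 ± 2.59 and 80.1 ± 10.1 TPM in naive, effector and memory cells. Slc25a51, the NAD carrier, and Slc25a30, a relative of the uncoupling proteins, came next in WT naive cells with 55.9 ± 4.24 and 53.7 ± 3.93 TPM (SD, n = 3 each), and their libraries overlapped. In WT effector cells Slc25a24 reached 91.4 ± 3.31 TPM, just under Slc25a11, and the libraries of these genes overlapped as well. The place of Slc25a24 differed between the subsets. Ordered by mean TPM among the members, it held places 26, 4 and 16 in naive, effector and memory libraries labelled cKO, against places 33, 5 and 25 in WT.

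**Figure D1:**
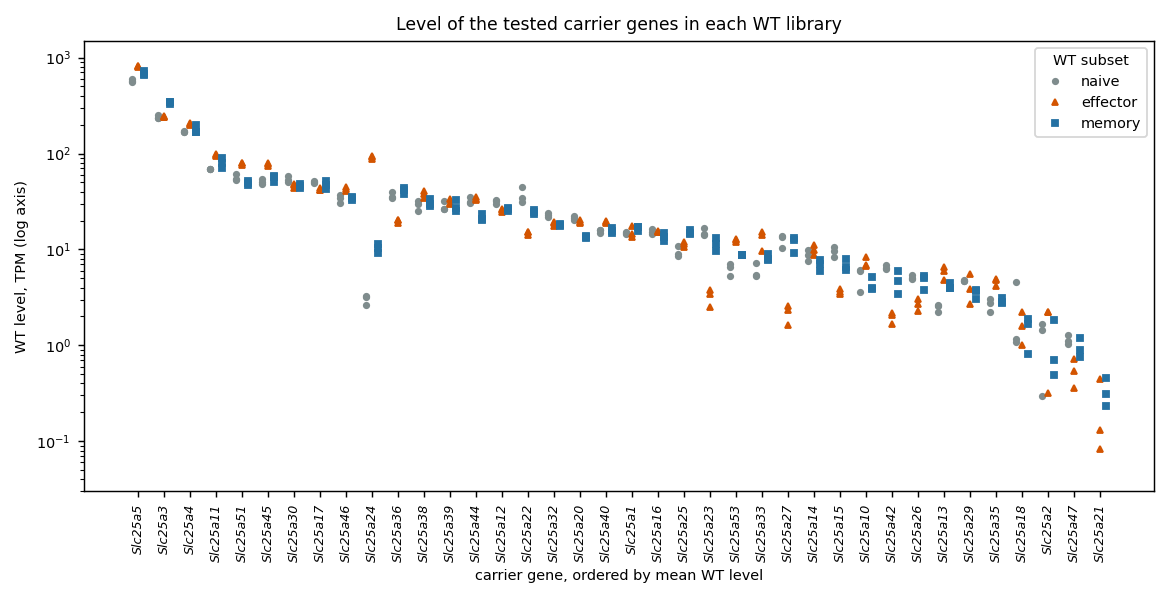
Level of carrier genes in each WT library, in TPM on a log axis, ordered by the mean over WT libraries, for carriers tested in at least 1 genotype comparison. Points are libraries, 3 per subset, and a library at 0 is not drawn; Slc25a5, Slc25a3 and Slc25a4 lead in every subset, and Slc25a24 spreads from 3.04 TPM in naive to 91.4 TPM in effector cells.

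At the other end, Slc25a31, the testis translocator, was listed for effector cells only and had at most 1.82 normalised reads in any library. Slc25a34 and Slc25a41 had at most 5.83 and 2.08 normalised reads in any library, and Slc25a43 at most 5.07. These 4 members fell below the filter everywhere, which asked for 10 or more normalised reads in 3 or more libraries. Slc25a21, the oxodicarboxylate carrier, was tested for the genotype effect in memory cells only, and Slc25a2, an ornithine carrier, in naive and effector cells only. Each comparison thus covered 38 of the 43 members.

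WT effector cells differed from WT naive cells in 27 of the 38 members tested, 15 higher and 12 lower in effector cells (edgeR on recovered reads, adjusted p under 0.05). This is 71.1% of the members, close to the 69.8% of all genes called (35.1% higher and 34.7% lower). The median log2 fold change was 0.11 over the members and -0.01 over all genes. Slc25a24 led the higher ones. It had 98.4, 91.5 and 94.7 CPM (reads per 1000000) in the WT effector libraries, against 2.83, 3.46 and 3.42 CPM in the naive ones. The subsets were far apart, with a log2 fold change of 4.96 (SE 0.11, edgeR adjusted p = 3.3e-19), or 31.1-fold. Over the same WT libraries the summed CPM of 6 markers of dividing cells was 2837 to 2978 in effector and 40.6 to 46.0 in naive cells, all 6 with reads in both. The 4 CD4 T cell markers summed to 63.3 to 64.8 CPM in WT effector and 4.52 to 5.87 CPM in WT naive cells, 8 B cell markers to 153 to 156 CPM and 441 to 479 CPM, and 9 myeloid markers to 149 to 159.6 CPM and 137 to 146 CPM. All of these had reads in both subsets. Of 8 myeloid markers tested, 7 were called higher and 1 lower in effector cells (median log2 fold change 4.16). Of the 4 CD4 T cell markers, 3 were called higher and 1 lower (median 1.77). Of 8 B cell markers tested, 5 were called higher and 2 lower in effector cells (median 3.62), although their sum was lower. The part of these markers in the result was not tested.

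Slc25a13, the aspartate/glutamate carrier citrin, had 5.51, 7.47 and 6.93 CPM in WT effector libraries, against 2.64, 3.05 and 3.03 CPM in naive ones (log2 fold change 1.28, SE 0.19, edgeR adjusted p = 7.2e-06). Slc25a33, a pyrimidine nucleotide carrier, had 8.63, 7.99 and 5.53 CPM against 3.14, 4.12 and 3.23 CPM (1.16, SE 0.20, adjusted p = 3.6e-05). Neither pair of groups overlapped. Slc25a5, Slc25a4, Slc25a11 and Slc25a51 were also among the higher ones, by 0.33 to 0.54.

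Slc25a27 fell the most in WT effector cells. It had 1.95, 3.05 and 2.80 CPM in WT effector libraries, against 17.0, 16.1 and 12.9 CPM in naive ones, a log2 fold change of -2.47 (SE 0.18, edgeR adjusted p = 2.5e-10). Slc25a23, an ATP-Mg/phosphate carrier paralogous to Slc25a24, had 6.03, 5.46 and 4.01 CPM against 23.9, 26.9 and 23.6 CPM (-2.18, SE 0.14, adjusted p = 3.6e-11). It overlaps Crb3 on the other strand, and the strand setting of the counting was not recorded. Slc25a42, the carrier of coenzyme A, had 3.76, 3.90 and 3.04 CPM against 11.8, 12.6 and 12.1 CPM (-1.68, SE 0.18, adjusted p = 5.6e-08). Every effector library lay below every naive library for these 3 genes. By role, 6 of the 9 nucleotide and cofactor carriers fell and 2 rose, and of the 9 amino acid carriers 3 fell and 2 rose, where 34.7% of all genes fell and 35.1% rose. Among the 6, Slc25a17, the peroxisomal cofactor carrier, lost its call with DESeq2 (adjusted p = 0.0584) and when effector WT replicate 1 or 2 (0.0835 and 0.0973) or naive WT replicate 1 or 3 (0.0624 and 0.0626) was left out. The folate carrier Slc25a32 lost it when effector WT replicate 1 was left out (0.0656). The ornithine carrier Slc25a15 (-1.35) and the glutamate carrier Slc25a22 (-1.26) fell the most among the amino acid carriers.

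WT memory cells differed from WT naive cells in 17 of 38 members, 8 higher and 9 lower in memory cells. This is 44.7% of the members, and 39.1% of all genes were called (21.2% higher and 17.9% lower). The median log2 fold change was -0.06 over the members and 0.00 over all genes. Slc25a24 again led, with 11.9, 10.1 and 11.0 CPM in memory libraries, against 2.83, 3.46 and 3.42 CPM in naive ones (log2 fold change 1.80, SE 0.12, edgeR adjusted p = 3.4e-10). Slc25a13 had 4.67, 5.48 and 4.66 CPM in memory and 2.64, 3.05 and 3.03 CPM in naive libraries (0.81, SE 0.20, adjusted p = 0.0030). Slc25a25, a further ATP-Mg/phosphate carrier, had 34.7, 39.8 and 36.1 CPM against 20.7, 26.1 and 22.2 CPM (0.72, SE 0.10, adjusted p = 8.4e-06). In these 3 genes no memory library reached down to the naive ones. Slc25a25 overlaps Naif1 on the other strand.

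Among the lower ones, Slc25a20, the carnitine/acylcarnitine carrier, had 19.8, 20.3 and 20.8 CPM in WT memory libraries, against 31.7, 32.8 and 31.2 CPM in naive ones (log2 fold change -0.61, SE 0.08, edgeR adjusted p = 8.6e-06). Slc25a44, a carrier of branched-chain amino acids, had 22.7, 23.0 and 25.5 CPM against 34.1, 38.8 and 35.2 CPM (-0.56, SE 0.09, adjusted p = 3.3e-05). Slc25a22 had 47.7, 44.4 and 45.1 CPM against 63.7, 82.2 and 58.4 CPM (-0.53, SE 0.10, adjusted p = 2.3e-04). The memory libraries of all 3 genes lay below the naive ones. Slc25a3 rose by 0.55 (SE 0.05), with 591, 587 and 592 CPM in memory and 434, 402 and 413 CPM in naive libraries. Beside these results, 6 markers of dividing cells summed to 287 to 305 CPM in WT memory and 40.6 to 46.0 CPM in WT naive cells, 8 B cell markers to 633 to 684 CPM and 441 to 479 CPM, 9 myeloid markers to 144 to 163 CPM and 137 to 146 CPM, and 8 matched erythroid markers to 24.3 to 33.8 CPM and 0.189 to 11.2 CPM. Slc4a1 was among the erythroid markers at 0 in WT naive cells. Of the tested markers, all 6 of dividing cells, 7 of 8 B cell, 7 of 8 myeloid and all 5 erythroid ones were higher in memory cells (median log2 fold changes 2.94, 5.15, 3.19 and 2.46). Their part in the result was not tested.

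Between WT memory and WT effector cells 26 of 38 members were called, 9 higher and 17 lower in memory cells. This is 68.4% of the members, beside 64.6% of all genes (32.6% higher and 32.0% lower). The 3 WT comparisons share libraries, so their values are given side by side only. Slc25a27 had 15.3, 11.4 and 15.9 CPM in memory libraries, against 1.95, 3.05 and 2.80 CPM in effector ones (log2 fold change 2.40, SE 0.18, edgeR adjusted p = 5.7e-10). Slc25a23 differed by 1.82 (SE 0.15) and Slc25a42 by 1.24 (SE 0.18), with 18.6, 16.2 and 21.6 CPM and 8.53, 6.62 and 10.8 CPM in memory libraries. Slc25a24 fell by 3.16 on the log2 scale in memory cells (SE 0.09, adjusted p = 6.3e-17), an 8.91-fold difference. The dicarboxylate carrier Slc25a10 had 4.06, 5.66 and 4.20 CPM in memory and 8.63, 7.08 and 7.23 CPM in effector libraries (-0.76, SE 0.20, adjusted p = 0.0026). Slc25a35, a member of less settled function, had 3.52, 3.25 and 3.21 CPM against 4.67, 5.33 and 5.53 CPM (-0.69, SE 0.20, adjusted p = 0.0054). The groups of all 6 genes were separate. Over these libraries the 6 markers of dividing cells summed to 287 to 305 CPM in WT memory and 2837 to 2978 CPM in WT effector cells, with all 6 lower in memory cells (median log2 fold change -3.43). The 8 B cell markers summed to 633 to 684 CPM and 153 to 156 CPM, with all 8 higher (median 1.55). Every one had reads in both subsets, and their part in the result was not tested.

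The genotype effect was tested within each subset with limma on log2(normalised reads + 1), so fold changes of carriers with few reads are understated. In naive cells 5 of 38 members were called, 3 higher and 2 lower in libraries labelled cKO. Slc25a24, Slc25a36 and Slc25a3 were among the higher ones and Slc25a4 among the lower ones. This is 13.2% of the members, below the 24.9% called among all 13885 genes tested (12.9% higher and 11.9% lower). The median log2 fold change was -0.01 over the members and -0.01 over all genes. The 33 members not called lay between -0.49 and 0.56. Slc25a24 had 138, 155 and 153 normalised reads in libraries labelled cKO, against 47.4, 58.5 and 57.8 in WT. All 3 cKO-labelled libraries stood above all WT libraries, 2.72-fold in the means (log2 fold change 1.43, SE 0.16, limma adjusted p = 8.4e-05). Slc25a36 had 2677, 2674 and 2342 normalised reads against 1784, 1705 and 2035 (0.48, SE 0.08, adjusted p = 0.0015), again without overlap. A lncRNA, Gm16185, overlaps Slc25a36 on the other strand.

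The naive calls of Slc25a3 and Slc25a4 were small. Slc25a3 had 8091, 8353 and 7577 normalised reads in naive libraries labelled cKO, against 7282, 6797 and 6975 in WT (log2 fold change 0.19, SE 0.06, limma adjusted p = 0.043). Slc25a4 had 1733, 1777 and 1731 against 2038, 2026 and 2144 (-0.24, SE 0.06, adjusted p = 0.013). The genotype groups were separate for both. Each of these calls was lost when some 1 library was left out. For Slc25a4 the adjusted p was 0.0605 when cKO replicate 1 was left out and 0.0556 when WT replicate 3 was. Slc25a3 lost its call when cKO replicate 1 or 2 was left out (adjusted p = 0.147 and 0.183), or WT replicate 1, 2 or 3 (0.0681, 0.0772 and 0.110).

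Scaling mattered in naive cells. The deposited size factors shifted the median of all genes by -0.12 on the log2 scale relative to library totals. With library totals 8 of 37 members tested were called, all higher in libraries labelled cKO, in place of 3 higher and 2 lower. Slc25a4 (-0.13, limma adjusted p = 0.15) was not among them. Under that setting 3708 of 13893 genes were called, and the median log2 fold change over all genes was 0.11. Slc25a5 had 5249.7, 4858 and 4841 normalised reads in naive libraries labelled cKO, against 5209, 4790.1 and 4989.7 in WT, and the groups overlapped. On the TPM scale the same gene averaged 689 ± 27.6 in libraries labelled cKO and 580 ± 22.5 in WT (SD, n = 3 each), so TPM were used here to compare genes with each other and not genotypes. Beside these results, the 6 markers of dividing cells summed to 260 to 281 CPM in naive libraries labelled cKO and 40.6 to 46.0 CPM in WT, and 5 gamma-delta T cell markers to 50.5 to 59.2 CPM and 9.36 to 10.9 CPM. The 4 CD4 T cell markers summed to 14.1 to 17.2 CPM and 4.52 to 5.87 CPM, and 8 B cell markers to 352 to 387 CPM and 441 to 479 CPM. Of the 7 B cell markers tested, 4 were called higher and 2 lower (median log2 fold change 0.60), although their sum was lower. The 6 CD8 T cell markers summed to 4002 to 4051 CPM in naive libraries labelled cKO and 4424 to 4667 CPM in WT, and 5 of the 6 were called lower (median log2 fold change -0.28). All of these markers had reads in both groups. The part of these cells, and of the sex-linked difference, in the result was not tested.

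In effector cells 5 of 38 members were called, 4 higher and 1 lower, or 13.2% of the members against 20.1% of the 13815 genes tested (10.7% higher and 9.37% lower). The median log2 fold change was 0.01 over the members and -0.01 over all genes. Slc25a27 had 14.2, 16.4 and 11.2 normalised reads in effector libraries labelled cKO, against 31.2, 48.8 and 44.6 in WT. All 3 cKO-labelled libraries lay below the WT ones, at 0.335 of the WT mean (log2 fold change -1.50, SE 0.31, limma adjusted p = 0.0017). These are the lowest counts of any called member. Slc25a3 had 7288, 7409 and 7335 normalised reads against 6523, 6439.9 and 6598 (0.17, SE 0.03, adjusted p = 9.7e-04). The groups were separate and tight, and no alternative setting in which Slc25a3 was tested ended this call. Reads of Slc25a3 may include those of a lncRNA on the other strand and of a snoRNA within it.

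Slc25a22 had 519.5, 523 and 572 normalised reads in effector libraries labelled cKO, against 406, 440.1 and 435 in WT (log2 fold change 0.33, SE 0.07, limma adjusted p = 0.0035). Slc25a25 had 497, 496 and 537 against 399.8, 429.7 and 456 (0.25, SE 0.08, adjusted p = 0.026). Slc25a24 had 1854, 1718 and 1597 against 1576, 1462 and 1510.0 (0.18, SE 0.06, adjusted p = 0.027). None of these groups overlapped, although the lowest cKO-labelled library of Slc25a24 was close to the highest WT library. The effector call of Slc25a24 was lost when cKO replicate 1 or 2 was left out (adjusted p = 0.123 and 0.0665), or WT replicate 2 or 3 (0.0855 and 0.0819). That of Slc25a25 was lost when cKO replicate 3 (0.112) or WT replicate 1 (0.123) was left out. In 1 fit of all 18 libraries, Slc25a22 (0.0516), Slc25a24 (0.273) and Slc25a25 (0.0872) were not called in effector cells. Markers of dividing cells summed to 2029 to 2118 CPM in effector libraries labelled cKO and 2837 to 2978 CPM in WT, and erythroid markers, 8 of 9 matched and all 8 with reads, to 101 to 105 CPM and 15.2 to 17.0 CPM. The 5 gamma-delta T cell markers, each with reads in both groups, summed to 61.7 to 64.6 CPM and 8.50 to 9.60 CPM. The 6 CD8 T cell markers summed to 4139 to 4293 CPM and 4683 to 4818 CPM, with 1 called higher and 2 lower (median log2 fold change 0.09). The 9 myeloid markers summed to 168 to 175 CPM and 149 to 159.6 CPM, with 4 called higher and 1 lower (median 0.67). Their part in the result was not tested.

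**Figure D2:**
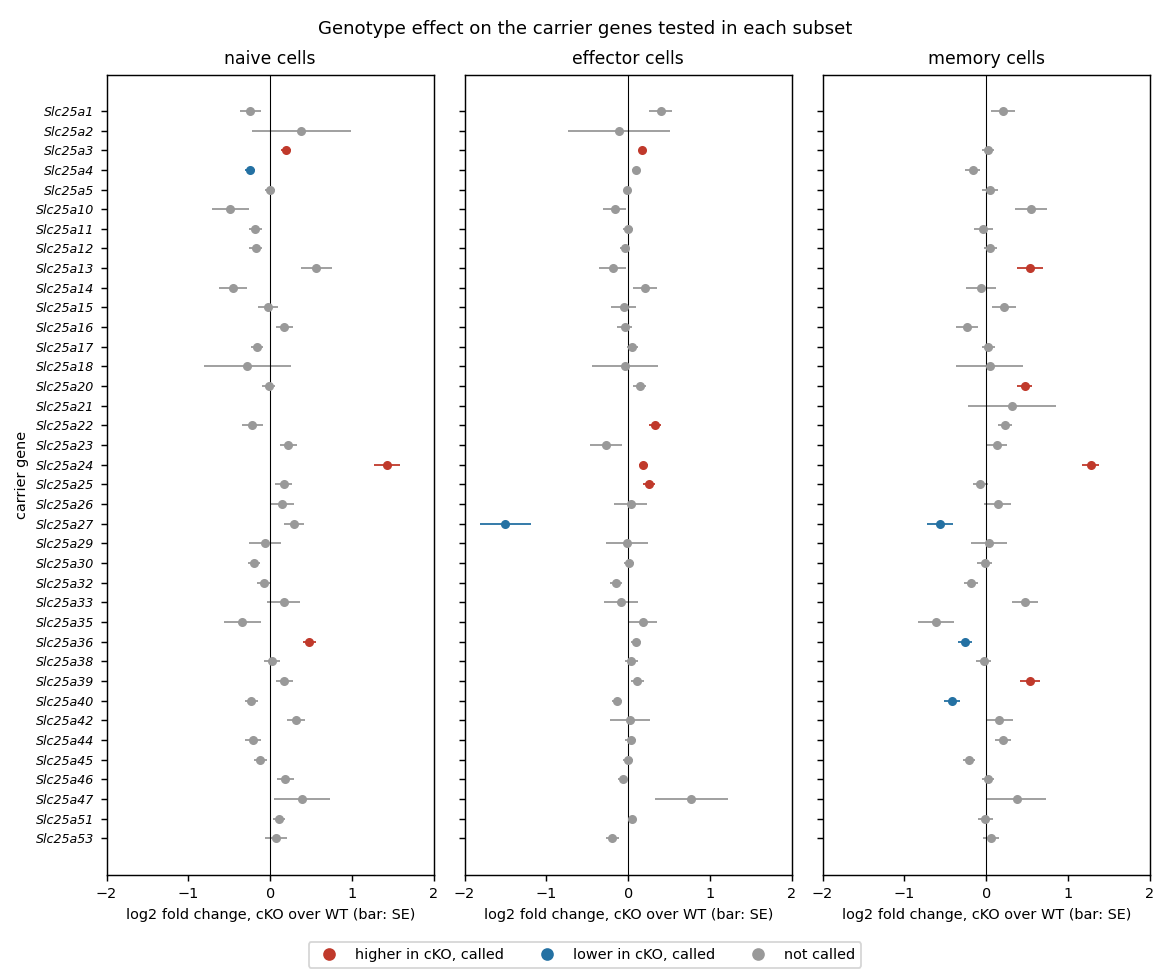
Log2 fold change (cKO over WT, limma on log2(normalised reads + 1)) of carrier genes tested in naive, effector and memory cells, with bars of 1 SE and called genes (adjusted p under 0.05) in colour. Slc25a24 stands apart to the right in naive (1.43) and memory (1.28) cells and Slc25a27 to the left in effector cells (-1.50), while most carriers lie near 0.

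In memory cells 7 of 38 members were called, 4 higher and 3 lower, or 18.4% of the members against 19.1% of the 14622 genes tested (12.1% higher and 7.0% lower). The median log2 fold change was 0.04 over the members and -0.02 over all genes. Slc25a24 had 456, 433 and 444 normalised reads in memory libraries labelled cKO, against 196, 170.5 and 182 in WT. The groups were far apart, 2.43-fold in the means (log2 fold change 1.28, SE 0.10, limma adjusted p = 4.0e-06). Slc25a20 had 461, 468 and 473 against 327, 343 and 342 (0.47, SE 0.09, adjusted p = 0.0027), with narrow and separate groups. Neither of these calls was lost under any alternative setting.

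The glutathione carriers Slc25a39 and Slc25a40 moved apart in memory cells. Slc25a39 had 617, 521 and 606 normalised reads in memory libraries labelled cKO, against 377, 484 and 351 in WT (log2 fold change 0.53, SE 0.12, limma adjusted p = 0.011). Slc25a40 had 534, 546 and 449 against 716, 667 and 658 (-0.42, SE 0.10, adjusted p = 0.0093). Both pairs of groups were separate. Slc25a39 made up 77.6 ± 3.04% of the summed TPM of the pair in memory libraries labelled cKO and 64.1 ± 4.10% in WT (SD, n = 3 each). Its share was also higher in naive (70.6 ± 1.78% against 64.4 ± 3.48%) and effector libraries labelled cKO (65.7 ± 2.27% against 61.8 ± 1.43%). Neither gene was called for a difference of the genotype effect between any subsets. Leaving out cKO replicate 3 (adjusted p = 0.0514), WT replicate 1 (0.0504) or WT replicate 3 (0.0616) ended the call of Slc25a39, and leaving out WT replicate 1 (0.0532) that of Slc25a40. In naive cells Slc25a40 showed -0.23 (adjusted p = 0.053) and in effector cells -0.14 (adjusted p = 0.14), neither called.

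Slc25a13 had 115, 118 and 125 normalised reads in memory libraries labelled cKO, against 77.0, 92.4 and 76.9 in WT (log2 fold change 0.54, SE 0.16, limma adjusted p = 0.033). Slc25a27 had 131, 185 and 159 against 252, 193 and 262 (-0.57, SE 0.16, adjusted p = 0.029). Slc25a36 had 1513, 1852 and 1753 against 2029, 1976 and 2119 (-0.26, SE 0.08, adjusted p = 0.049). The groups did not overlap, but for Slc25a27 WT replicate 2 lay close to cKO replicate 2. Slc25a13 lost its call when cKO replicate 2 or 3 was left out (adjusted p = 0.0743 and 0.107), or WT replicate 1 or 3 (0.107 and 0.113). Slc25a27 lost it when cKO replicate 3 (0.0796), WT replicate 1 (0.113) or WT replicate 3 (0.131) was left out. Slc25a36 stayed called only without cKO replicate 2, and the adjusted p was between 0.0767 and 0.185 without any other library. With library totals 7 members were higher and 1 lower in memory cells, and Slc25a27 (adjusted p = 0.0582) and Slc25a36 (0.153) were not called. Under that setting 2909 of 14591 genes were called, and the median log2 fold change over all genes was 0.05. Slc25a13 was not called with DESeq2 (0.0604).

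Beside the memory results, 9 myeloid markers summed to 311 to 398 CPM in libraries labelled cKO and 144 to 163 CPM in WT. Erythroid markers, 8 of 9 matched, summed to 62.6 to 78.2 CPM and 24.3 to 33.8 CPM, and 5 gamma-delta T cell markers to 117 to 153 CPM and 15.9 to 16.5 CPM. The 6 markers of dividing cells summed to 385 to 447 CPM and 287 to 305 CPM, 4 CD4 T cell markers to 32.8 to 35.6 CPM and 15.2 to 18.3 CPM, and 8 B cell markers to 732 to 816 CPM and 633 to 684 CPM. The 6 CD8 T cell markers summed to 3154 to 3650 CPM in memory libraries labelled cKO and 3945 to 4319 CPM in WT. Of these, 3 were called lower and 0 higher (median log2 fold change -0.22). Of the other markers tested, 8 of 9 myeloid, 5 of 8 erythroid and 4 of 4 gamma-delta T cell ones were called higher (medians 2.01, 1.12 and 3.49). So were 4 of 6 of dividing cells, 2 of 4 CD4 T cell and 5 of 8 B cell ones (medians 0.44, 0.70 and 0.48). None of these other markers was called lower. Every matched marker of these lists had reads in both groups, and their part in the result was not tested.

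**Figure D3:**
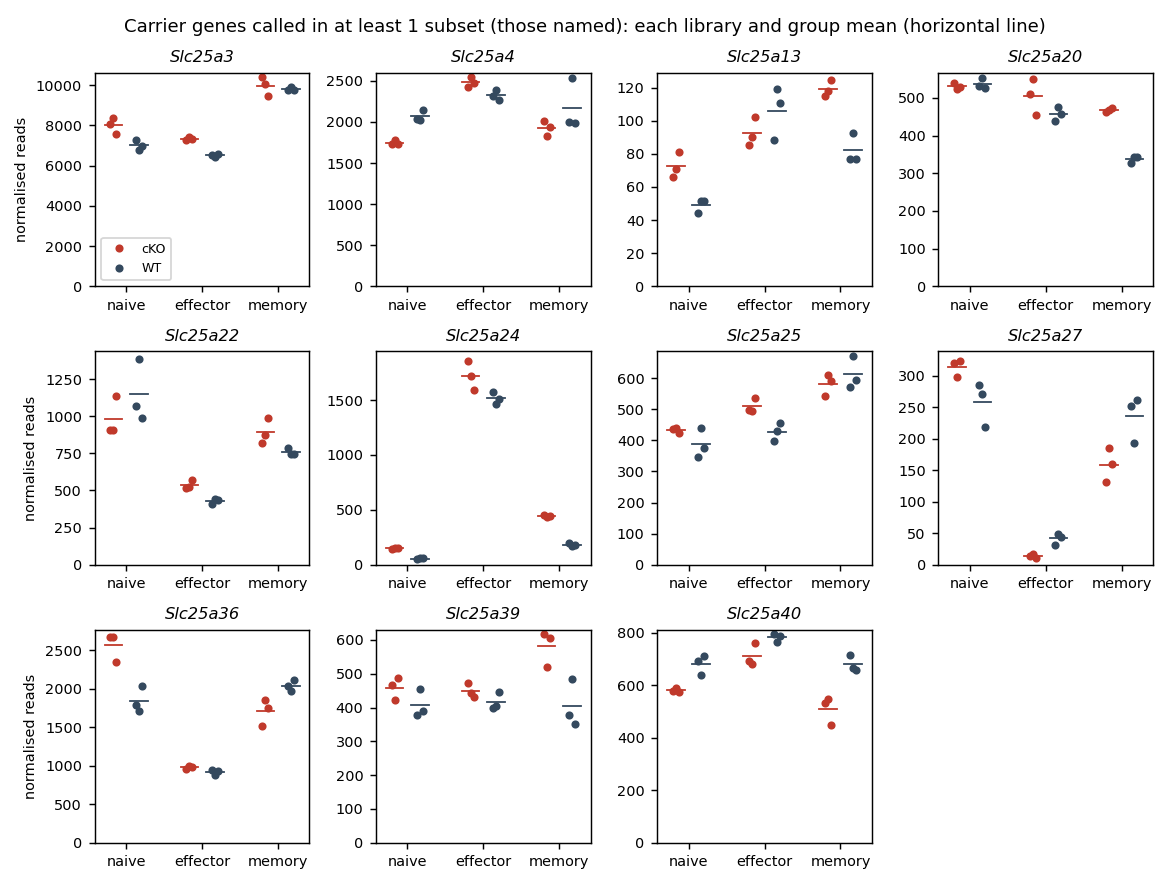
Normalised reads of carrier genes called in at least 1 subset and named in the text, for each library, with cKO left of WT in each subset and the group mean as a horizontal line; the size factors were set within each subset. Slc25a24 is separated in all 3 subsets, Slc25a36 is above WT in naive and below it in memory cells, and Slc25a20 is separated in memory cells only among the 3 subsets.

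Across the subsets, whose genotype comparisons share no libraries, 12 members were called at least once and 4 in 2 or more subsets. Of the 37 members tested in all 3, 25 were called in none. The shares of all genes called at least once, or in 2 or more subsets, were not worked out. Within naive, effector and memory cells alone, 13.2%, 13.2% and 18.4% of the members were called, beside 24.9%, 20.1% and 19.1% of all genes. Slc25a24 was the 1 member called everywhere, each time higher in libraries labelled cKO. Slc25a3 was higher in naive and effector cells and Slc25a27 lower in effector and memory cells. Slc25a36 was higher in naive and lower in memory cells. The oxoglutarate carrier Slc25a11, the NAD carrier Slc25a51, the S-adenosylmethionine carrier Slc25a26 and the glycine carrier Slc25a38 were among those not called in any subset, which does not show that they were equal.

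Whether the genotype effect differed between subsets was tested with interaction terms in 1 limma fit of all 18 libraries. For effector minus naive 7 of 38 members were called, 3 higher and 4 lower, or 18.4% of the members beside 18.5% of all genes (8.81% higher and 9.69% lower). For memory minus naive 6 were called, 4 higher and 2 lower, or 15.8% beside 16.9% (7.89% higher and 9.0% lower). For memory minus effector 3 were called, 2 higher and 1 lower, or 7.89% beside 8.71% (4.75% higher and 3.96% lower). The effect on Slc25a24 was smaller in effector cells than in naive cells by a log2 difference of -1.25 (SE 0.14, adjusted p = 4.3e-07), and larger in memory than in effector cells by 1.10 (SE 0.14, adjusted p = 1.2e-05). The effect on Slc25a36 differed by -0.74 (SE 0.11, adjusted p = 4.9e-05) between memory and naive cells. For Slc25a20 the memory effect exceeded the naive one by 0.49 (SE 0.11, adjusted p = 0.0035). The naive groups also differ in sex-linked RNA, and the genotype effect on Xist differed by 1.69 (SE 0.18) for both effector minus naive (adjusted p = 4.3e-07) and memory minus naive (adjusted p = 7.8e-07). The 6 markers of dividing cells were all lower in both of these differences (medians -2.85 and -1.95), and 5 of 6 were higher for memory minus effector (median 0.90). The part of either in the result was not tested. With library totals the split was 0 higher and 6 lower for effector minus naive, and 5 higher and 0 lower for memory minus effector. Beside these, 3097 and 1478 of 15671 genes were called, with medians over all genes of -0.12 and 0.06. DESeq2 gave 4 higher and 0 lower for memory minus effector, beside 1816 of 15694 genes called (median over all genes 0.01).

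Pairs of related carriers shared their summed TPM differently between subsets. Slc25a24 made up 44.0 ± 1.75%, 88.5 ± 1.19% and 63.6 ± 2.00% of the sum of Slc25a24 and Slc25a25 in naive, effector and memory libraries labelled cKO, against 24.4 ± 1.48%, 89.0 ± 0.897% and 40.7 ± 3.63% in WT (SD, n = 3 each). Slc25a12, the aspartate/glutamate carrier aralar, made up 88.4%, 83.1% and 81.7% of its pair with Slc25a13 in libraries labelled cKO and 92.7%, 81.5% and 86.2% in WT. Slc25a4 stayed the minor translocator, with 18.2% to 21.3% of the sum of Slc25a4 and Slc25a5 over the group means in libraries labelled cKO and 20.1% to 22.5% in WT. These shares are given without a test.

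Genes that work with the carriers were taken from lists set down with earlier results of these data known. Over all genes tested, 12.9% were higher and 11.9% lower in naive libraries labelled cKO, 10.7% and 9.37% in effector and 12.1% and 7.0% in memory ones. Of the TIM22 carrier import route, 13 of 14 genes were tested. In naive cells 2 fell, Tomm22 (-0.40, SE 0.08, limma adjusted p = 0.0035) and Timm13 (-0.42, SE 0.13, adjusted p = 0.040), and 0 rose, with a median of -0.06. In effector and memory cells 0 of 13 were called, with medians of 0.08 and 0.03. Of the family members under other symbols Ucp2, Mtch1 and Mtch2 were tested, and only Ucp2 in effector cells was called (0.17, SE 0.04, adjusted p = 0.0030). Other transporters of the mitochondrial membranes gave 0 higher and 1 lower of 19 in naive, 0 and 4 of 17 in effector and 2 and 1 of 18 in memory cells. The mitochondrial calcium exporter Slc8b1 was the lower one in naive (-0.50) and the largest higher one in memory cells (1.38).

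The mitochondrial folate enzymes, whose substrate enters through Slc25a32, gave 3 higher and 0 lower of 5 in naive cells (median 1.33) and 3 and 0 of 5 in memory cells (median 0.73), and 0 and 1 of 4 in effector cells, where 12.9%, 12.1% and 10.7% of all genes rose in naive, memory and effector cells. Mthfd2 rose by 1.56 (SE 0.07) and Shmt2 by 1.33 (SE 0.08) in naive libraries labelled cKO. Slc25a32 itself had 713, 719 and 631 normalised reads in these libraries, against 721, 689 and 769 in WT, and the groups overlapped (-0.08, SE 0.08, limma adjusted p = 0.53). Of the carnitine shuttle and acyl-CoA dehydrogenase genes, 3 of 6 rose in memory cells beside Slc25a20, where 12.1% of all genes rose. These were Cpt1a, the outer membrane acyltransferase (0.45, SE 0.08), Crat, carnitine acetyltransferase (1.12, SE 0.22), and Acadl (0.32, SE 0.10). In naive cells 1 of the 6 rose and 2 fell, and in effector cells 1 rose. Of the malate-aspartate shuttle enzymes, Got1 rose in naive (0.48, SE 0.10) and memory cells (0.28, SE 0.08) and Mdh1 fell in naive cells (-0.41, SE 0.06). Of 4 citrate export genes tested, 1 rose in effector cells and 0 were called in either other subset.

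In the authors' deposited table, at an adjusted p under 0.05, the naive calls numbered 5, the effector calls 4 and the memory calls 5, and limma made every one of them too. The calls made by limma alone were Slc25a25 in effector cells and Slc25a13 and Slc25a36 in memory cells.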

How the data were processed

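Poly-A RNA was sequenced from naive, effector and memory CD8+ T cells of both genotypes, 3 libraries per group, grouped by the sample titles. Per the submitters' processing notes, the tools were DESeq2 1.42.0, featureCounts 2.0.6, HISAT2 2.2.1 and fastp, with GRCm39; settings, annotation and strand setting are not given in the sources used here. The authors deposited 1 table per subset, with a normalised signal per gene and library, a p-value, raw and adjusted, and a log2 fold change that runs WT over cKO. Every deposited signal value was a whole number of reads divided by 1 size factor per library (100% whole within 1e-05 reads), so read counts and totals (14771251 to 18049774) were recovered.

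Genotype effects were tested within each subset with limma 3.58.1 (trend) on log2(normalised reads + 1), where a gene had 10 or more normalised reads in 3 or more libraries, and differences between subsets as interaction terms over genes listed in all 3 tables. Size factors were set per table, so WT subsets were compared on recovered reads with edgeR 4.0.16 (quasi-likelihood, TMM). All p-values were adjusted by Benjamini-Hochberg over all genes and called under 0.05. The edgeR SE is the log2 fold change divided by the square root of the F statistic. Count tests (edgeR, DESeq2) on recovered reads, other scalings, pseudocounts and filters, a replicate block and leaving out each library were the alternatives. The procedure was run on simulated data with the same spread for every gene, and not for every comparison. Changes were placed only in genes with many reads, so carriers with few reads were not covered. The members and gene lists were chosen with earlier results of these data known. Values per library are given for members called in a genotype comparison (1 member is counted but not reported here), for the 3 largest called differences per direction in WT, and for Slc25a3, Slc25a4 and Slc25a5. Promoters are RefSeq, GRCm38.p6, and were matched by symbol for 33 members. Counting intervals are not given, and depth limits carriers with few reads.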

Additional observations from a re-analysis of the deposited data

Results flagged for a closer look

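The genotype effect (cKO minus WT) differed between subsets for 10 members, tested as interaction terms in 1 limma fit of all 18 libraries. Members were called at close to the rate of all genes in each comparison. The shares were 18.4% beside 18.5% for effector minus naive and 15.8% beside 16.9% for memory minus naive. For memory minus effector they were 7.89% beside 8.71%. The share of all genes called in at least 1 of these comparisons was not worked out. The comparisons share libraries. Values are log2 differences with SE and adjusted p.

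Slc25a27 differed in all 3 comparisons. The effector effect was below the naive one by -1.79 (SE 0.27, limma adjusted p = 3.5e-05), the memory effect below the naive one by -0.86 (SE 0.27, adjusted p = 0.031) and above the effector one by 0.94 (SE 0.27, adjusted p = 0.030). Its own naive, effector and memory effects were 0.29, -1.50 and -0.57. Effector libraries held at most 16.4 normalised reads labelled cKO and 48.8 in WT. Slc25a36 also differed in all 3, by -0.38 for effector minus naive (adjusted p = 0.017), -0.74 for memory minus naive (adjusted p = 4.9e-05) and -0.36 for memory minus effector (adjusted p = 0.044).

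Slc25a24 differed by -1.25 for effector minus naive and by 1.10 for memory minus effector, where its naive, effector and memory effects were 1.43, 0.18 and 1.28. Slc25a22 differed by 0.55 for effector minus naive (SE 0.15, limma adjusted p = 0.013) and by 0.45 for memory minus naive (SE 0.15, adjusted p = 0.045). It had 906, 905 and 1137 normalised reads in naive libraries labelled cKO, against 1069, 1389 and 987 in WT.

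For effector minus naive alone, Slc25a1, the citrate carrier, differed by 0.64 (SE 0.21, limma adjusted p = 0.035), Slc25a4 by 0.34 (SE 0.10, adjusted p = 0.024) and Slc25a13 by -0.75 (SE 0.23, adjusted p = 0.028). Slc25a1 was called in neither subset itself, with 192, 259 and 183 normalised reads in effector libraries labelled cKO, against 151, 142 and 185 in WT, and 135, 132 and 156 in naive libraries labelled cKO, against 168, 169 and 165 in WT.

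For memory minus naive alone, Slc25a10 differed by 1.03 (SE 0.28, limma adjusted p = 0.014), Slc25a20 by 0.49 (SE 0.11, adjusted p = 0.0035) and Slc25a44 by 0.41 (SE 0.12, adjusted p = 0.020). Slc25a10 was called in neither subset itself and had 118, 92.3 and 127 normalised reads in memory libraries labelled cKO, against 67.0, 95.4 and 69.2 in WT, and 58.5, 75.8 and 63.2 in naive libraries labelled cKO, against 108, 109 and 66.5 in WT. The memory and naive groups of Slc25a10 each overlapped between genotypes.

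Some of these calls did not hold when 1 library was left out. For effector minus naive, Slc25a4 lost its call without effector cKO replicate 2, effector WT replicate 3 or naive WT replicate 3 (adjusted p between 0.0563 and 0.0605). Slc25a13 lost it without effector cKO replicate 1 or 2, effector WT replicate 2 or 3, naive cKO replicate 3 or naive WT replicate 1 (0.0563 to 0.0749). Slc25a1 kept it only without effector cKO replicate 1 or 3, effector WT replicate 3 or naive cKO replicate 3, with 0.0514 to 0.118 otherwise. With library totals Slc25a1 (0.0862), Slc25a4 (0.138) and Slc25a22 (0.0509) were not called for effector minus naive. For memory minus naive, Slc25a44 lost its call without memory cKO replicate 3, memory WT replicate 1, naive cKO replicate 1 or 2 or naive WT replicate 2 (0.0533 to 0.0632). Slc25a27 lost it without memory cKO replicate 1, memory WT replicate 1 or 3, naive cKO replicate 1 or 3 or naive WT replicate 3 (0.0524 to 0.0865). Slc25a22 kept it only without memory cKO replicate 1, naive cKO replicate 3 or naive WT replicate 1 or 3, with 0.0527 to 0.136 otherwise. Slc25a22 also lost this call with library totals (0.0687). For memory minus effector, Slc25a27 lost its call without memory cKO replicate 2 or 3, memory WT replicate 2, effector cKO replicate 3 or effector WT replicate 2 or 3 (0.0574 to 0.0879). Slc25a27 also lost this call with a pseudocount of 5 (0.0627). Slc25a36 kept it only without memory cKO replicate 2 or memory WT replicate 2, with 0.0535 to 0.112 otherwise. It also lost the call with DESeq2 (0.0507), library totals (0.129) and no filter (0.0550), and was thus not called in 14 of 21 alternatives, the replicate block (0.0601) included.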

How the results depend on the processing

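No direction of a called value reversed under any alternative setting run. Of 103 calls on members over the 9 comparisons, 67 were kept under every alternative in which the member was tested. Calls kept throughout were Slc25a24 and Slc25a36 in naive, Slc25a3 and Slc25a27 in effector, and Slc25a24 and Slc25a20 in memory cells.

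The count of members called moved by over 1.5 times under these settings. In naive cells it was 8 with library totals and 2 with the replicate block, against 5. Of all genes, 3708 of 13893 and 2469 of 13885 were called there, against 3454 of 13885. In effector cells it was 2 with all 18 libraries in 1 fit, against 5, beside 1519 of 15694 genes against 2779 of 13815. For memory minus effector it was 5 with library totals and 5 with a filter at 50 reads, against 3. Of all genes, 1478 of 15671 and 1391 of 11804 were called there, against 1367 of 15694. The causes were not tested. Leaving out 1 library gave 2 to 6 in naive, 4 to 5 in effector and 2 to 8 in memory cells, 4 to 7 for effector minus naive, 3 to 7 for memory minus naive and 1 to 4 for memory minus effector. The WT comparisons gave 24 to 28 (effector against naive), 13 to 17 (memory against naive) and 22 to 28 (memory against effector). The libraries that moved a count by over 1.5 times were naive cKO replicate 1 (2) and WT replicate 1 (3), memory WT replicate 1 (2), WT replicate 3 (3) and cKO replicate 3 (3), effector cKO replicate 2 for effector minus naive (4), naive cKO replicate 1 and memory WT replicate 1 for memory minus naive (3 each), and effector WT replicates 2 and 3, effector cKO replicate 3 and memory cKO replicate 3 for memory minus effector (1 each).

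Same-numbered libraries did not deviate together (correlations across genes from -0.14 to 0.12), so the numbers were not taken as pairs; with the replicate block 2 naive members stayed called, Slc25a24 and Slc25a36. The block also ended the memory calls of Slc25a13 (adjusted p = 0.0696) and Slc25a36 (0.0918), the memory minus effector call of Slc25a36 (0.0601) and the WT effector against naive call of Slc25a47 (0.0529), and no other call outside naive cells.

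Depth limits Slc25a27 in effector cells and the 4 members under the filter everywhere.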
